A study of Mus musculus with 6 samples.

Results

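The genes described here are those whose symbol begins with Gpr or Hcar followed by a digit, the names given to G protein coupled receptors first found as sequences without a known ligand and to the hydroxycarboxylic acid receptors. The deposited table lists 44 of them among 18341 genes, and 31 reach a mean of 1 CPM (read counts divided by the library total, on a common scale) or more over all 6 libraries and are described one by one with 1 exception. The level over all libraries chose these 31, so their levels are a description, while the rule does not use the contrast between the tumour groups. The group of genes itself was proposed with earlier results of these data known. Gpr158, Gpr55 and Gpr84 are an exception, since each reached that mean through 1 group only and had to differ. The members nearest above the limit were Gpr176 at a mean of 1.27 CPM, Gpr158 at 1.32 and Gpr162 at 1.48, and those nearest below it were Gpr19 at 0.817, Gpr161 at 0.787 and Gpr21 at 0.648.

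The libraries are RNA sequencing of monocytes sorted from tumours grown under the skin of C57BL/6 mice for 13 days. One group, called BAFF tumour here, had received B16.F10 cells that overexpressed BAFF, the B cell activating factor, and the other, control tumour, had received control B16.F10 cells, with 3 libraries in each. B16.F10 cells come from a mouse melanoma and make pigment. The sources used here do not state how BAFF was introduced, whether the line was a clone, the sort markers, the age and sex of the mice or whether mice were pooled. The p-values therefore measure the spread between these libraries, which may be technical. The comparison asks how the transcripts of tumour monocytes differ when the tumour cells overexpress BAFF.

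G protein coupled receptors cross the membrane several times and pass a signal from outside the cell to heterotrimeric G proteins, which raise or lower cyclic AMP, release calcium or act on the cytoskeleton. In monocytes and macrophages several members of this group read the chemistry of the tissue: protons, ketone bodies, short- and medium-chain fatty acids, lactate, products of tryptophan breakdown, oxidised cholesterol and lysophospholipids. Not every Gpr symbol stands for such a receptor. Gpr89, Gpr107, Gpr108, Gpr155 and the Gpr137 family are known as multi-pass proteins of the Golgi or lysosome, Gpr143 sits in melanosomes, and they are grouped apart from the surface receptors here.

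The libraries differed in depth and in how much of the total the listed genes held. The spacing of the low values gave 4.72 to 27.6 reads per CPM, so that 3 reads, used here as the floor of detection, came to between 0.109 and 0.635 CPM. Control tumour 2 and control tumour 3 stood apart: the ribosomal RNA gene CT010467.1 was at 27017 and 43052 CPM there and at 299.4 to 5880 CPM in the other 4 libraries, and control tumour 3 was the lowest library for 24 of the 31 tested receptor genes on the deposited scale. Calls are therefore given on the deposited scale and again after size factors by the median of ratios (RLE). These were 1.07 to 1.14 in BAFF tumour and 1.27, 0.904 and 0.670 in control tumour 1, 2 and 3. Monocyte genes were abundant in all 6 libraries: Ccr2 was at 815.4 to 925.7 CPM in BAFF tumour and 405.7 to 743.3 CPM in control tumour, while the T cell gene Cd3e was at most 1.27 CPM. Tnfsf13b, which encodes BAFF, was at 0.906 to 1.97 CPM in the BAFF tumour monocytes and 0.843 to 1.72 CPM in the control tumour monocytes, so these values do not check the overexpression, which was in the injected cells.

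To show the start regions of the genes that passed the test on the deposited scale, the 250 bases before the RefSeq gene start (GRCm38.p6, gene strand, 5′ to 3′) are printed for the 5 of those 7 genes with an entry. Hcar2 and Gpr171 have none. Capitals mark a match to one of the motifs searched, which is AGGAAGT or its reverse complement in Gpr132, Gpr84 and Gpr55, and GGGCGG or its reverse complement in Gpr158.

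Gpr132, chr12:112860917-112861166, minus strand: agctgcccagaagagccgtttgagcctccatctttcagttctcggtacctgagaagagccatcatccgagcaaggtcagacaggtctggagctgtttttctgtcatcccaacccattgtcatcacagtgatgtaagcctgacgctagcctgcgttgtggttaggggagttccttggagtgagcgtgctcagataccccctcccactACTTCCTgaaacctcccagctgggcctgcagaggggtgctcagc
Gpr84, chr15:103310439-103310688, minus strand: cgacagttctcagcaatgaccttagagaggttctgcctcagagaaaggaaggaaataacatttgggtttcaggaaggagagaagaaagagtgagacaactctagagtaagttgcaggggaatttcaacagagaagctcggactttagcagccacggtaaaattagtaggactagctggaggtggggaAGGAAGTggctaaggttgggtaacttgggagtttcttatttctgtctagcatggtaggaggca
Gpr55, chr1:85961056-85961305, minus strand: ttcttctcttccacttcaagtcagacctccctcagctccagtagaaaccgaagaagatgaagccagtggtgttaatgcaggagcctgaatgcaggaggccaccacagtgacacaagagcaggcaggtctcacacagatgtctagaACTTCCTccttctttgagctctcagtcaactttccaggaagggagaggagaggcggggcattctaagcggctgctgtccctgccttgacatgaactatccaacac
Gpr141, chr13:19824258-19824507, minus strand: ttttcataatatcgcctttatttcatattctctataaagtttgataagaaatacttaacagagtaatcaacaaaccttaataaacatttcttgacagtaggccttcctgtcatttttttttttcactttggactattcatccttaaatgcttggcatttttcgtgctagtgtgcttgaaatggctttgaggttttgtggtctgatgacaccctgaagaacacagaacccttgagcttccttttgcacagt
Gpr158, chr2:21367317-21367566, plus strand: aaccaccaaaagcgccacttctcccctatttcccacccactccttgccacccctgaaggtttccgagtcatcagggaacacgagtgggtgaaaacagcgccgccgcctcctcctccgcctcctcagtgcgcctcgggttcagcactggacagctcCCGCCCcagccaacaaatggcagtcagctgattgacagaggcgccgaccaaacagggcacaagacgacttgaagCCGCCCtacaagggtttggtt

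AGGAAGT is a core of the sites bound by PU.1, the myeloid lineage factor, and it begins 44 bases before the start in Gpr132, 63 in Gpr84 and 105 in Gpr55. The same letters, read on both strands, were in 7 of the 34 receptor genes with an entry, in 9.4% of the 8849 tested genes with one and in 7.69% of all 32851 start regions of this length. The GC box GGGCGG was in 14 of the 34 genes, in 63.9% of the tested genes with an entry and in 32.7% of all start regions, and Gpr158 had it 95 and 21 bases before its start. The Gpr141 window held none of the 9 motifs searched. For the other letters looked for, the share of tested genes with an entry is given first and that of all start regions second. TGANTCA of AP-1 was in 2 of the 34 genes (5.44% and 6.75%), ACGTG of the hypoxia response in 9 (25.7% and 16.6%), CATGTG of MITF in 3 (9.22% and 12.3%), and GAAA, 2 free bases and GAAA of interferon regulatory factors in 4 (3.6% and 2.98%). GGG, 2 free bases and TTTCC of NF-kB (1.83% and 1.41%), TGACGTCA of the cyclic AMP response element (3.1% and 1.55%) and TTGCGCAA of C/EBP (0.305% and 0.164%) were each in 0 of the 34. These matches describe letters only.

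Per length of exon, the receptor genes with the highest levels were Hcar2 at 61.9 CPM per kilobase, Gpr35 at 46.7, Gpr65 at 36.8, Gpr132 at 31.1, Gpr171 at 19.9 and Gpr141 at 18.3, using GENCODE M21 exons merged per gene. These are receptors for ketone bodies, tryptophan products, protons and lactate, together with 2 orphans of blood cells. The next in order were Gpr108 at 9.70, Gpr137b-ps at 8.11, Gpr183 at 5.77 and Gpr137b at 5.53 CPM per kilobase, and the other 34 genes were at or under 3.86. In summed CPM the 6 leading genes held 75.2% to 77.3% of all 44 in the BAFF tumour libraries and 62.6% to 69.7% in the control tumour libraries. The summed CPM of the 44 genes was 1119, 1167 and 1156 in BAFF tumour and 936.9, 631.2 and 470.0 in control tumour, without overlap. The difference of 468.2 CPM had an exact two-sided permutation p of 0.1, the smallest that 3 against 3 libraries can give. After RLE it was 337.9 CPM with the same p.

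**Figure D1:**
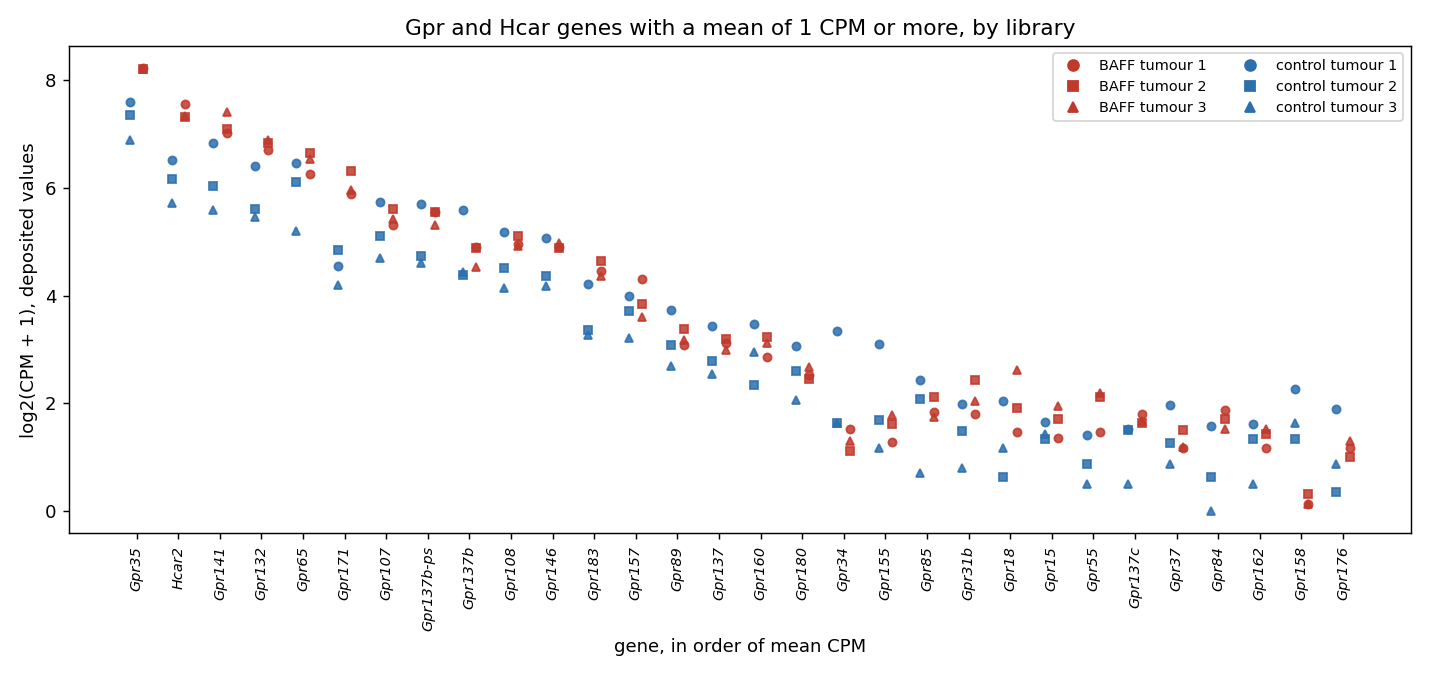
Deposited level of 30 of the 31 tested receptor genes in every library, as log2(CPM + 1) on the vertical axis, with genes ordered by mean CPM. Red points are BAFF tumour and blue points control tumour, and the shape gives the library number. Gpr35, Hcar2 and Gpr171 have all red points above all blue points, Gpr158 and Gpr34 have all red points below, and control tumour 3 is often the lowest point.

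Of the 31 genes, 6 were higher in BAFF tumour monocytes by limma on log2(CPM + 1) with a Benjamini-Hochberg adjusted p under 0.05 over 12824 genes, where 1.81% of all tested genes were. They were Gpr171, Hcar2, Gpr141, Gpr132, Gpr55 and Gpr84. One, Gpr158, was lower, where 3.5% of all tested genes were, and the other 24 did not pass. Gpr55, Gpr84 and Gpr158 had reached the level limit through 1 group, which leaves Gpr171, Hcar2, Gpr141 and Gpr132 among the called genes that had not. The groups did not overlap for 8 genes higher in BAFF tumour, against a background of 11.4%, and for 2 genes lower, against 6.6%. Gpr55 is among the higher and Gpr158 among the lower of these, which leaves Gpr34 as the lower gene that had not reached the limit through 1 group. The median log2 difference of the 31 genes was 0.38, beside 0.23 for all tested genes.

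After RLE, which moved the median of all genes to 0.01, the median of the 31 receptor genes was 0.13. Higher genes numbered 8, against a background of 7.18%, Gpr35 and Gpr183 now among them and Gpr84 no longer. Lower genes numbered 2, Gpr158 and Gpr34, against a background of 9.91%. Without overlap between groups were 9 genes higher, against 17.3% of all tested genes, and 3 lower, against 17.8%. Gpr55 and Gpr84 among the higher of these and Gpr158 among the lower had reached the level limit through 1 group. Gpr55 and Gpr158 are also among the genes called after RLE. The standard error on the deposited scale was pooled over all genes (the prior degrees of freedom were infinite) and does not reflect the spread of the single gene. After RLE it does in part, with 7.79 prior degrees of freedom. In these bulk libraries fewer cells of a type and less RNA per cell cannot be told apart.

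**Figure D2:**
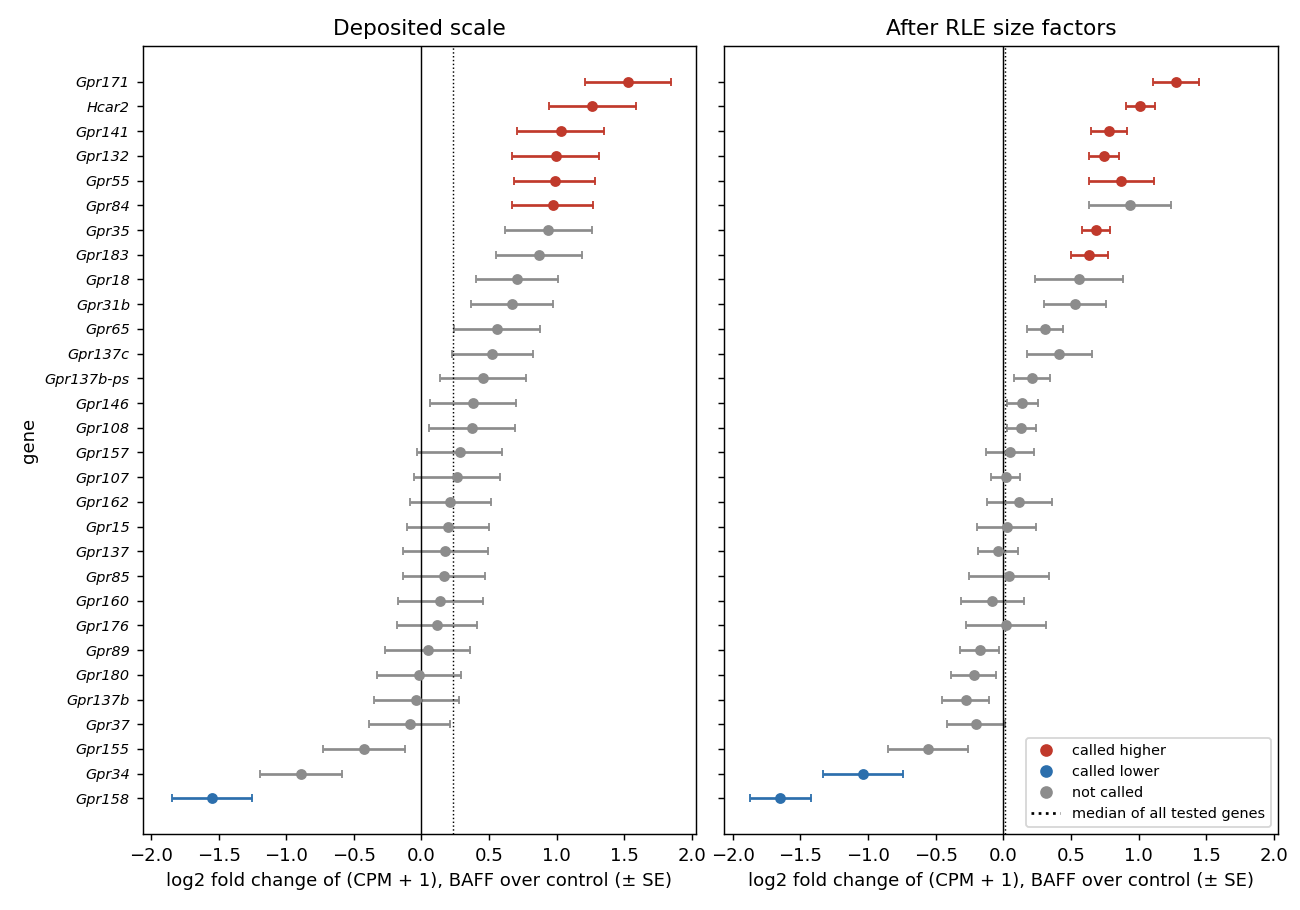
Log2 difference of (CPM + 1), BAFF tumour minus control tumour, with its standard error, for 30 of the 31 tested receptor genes, on the deposited scale (left) and after RLE size factors (right). Red and blue points have an adjusted p under 0.05 by limma, grey points do not, and the dotted line is the median of all tested genes, 0.23 on the left and 0.01 on the right. Gpr171 is the highest and Gpr158 the lowest on both scales.

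Of the 4 metabolite receptors, 2 were higher in BAFF tumour monocytes on the deposited scale, Hcar2 and Gpr84, and 2 after RLE, Hcar2 and Gpr35. Among all tested genes 1.81% and 7.18% were higher on these scales. Gpr84 had reached the level limit through BAFF tumour only. Hcar2, the receptor for the ketone body beta-hydroxybutyrate, butyrate and niacin, was at 186, 158 and 160 CPM in BAFF tumour and 90.8, 70.9 and 51.4 CPM in control tumour. The lowest BAFF tumour library was above the highest control library. Its mean was 168 ± 15 CPM against 71.1 ± 20 CPM (SD, n = 3), and the log2 difference was 1.26 ± 0.32 (SE, adjusted p = 0.00374 by limma) on the deposited scale and 1.01 ± 0.11 (adjusted p = 9.79e-05) after RLE. The 3 control libraries lay at 71.7, 78.4 and 76.8 RLE-scaled CPM, much closer than before the scaling. With any of the 3 BAFF tumour libraries or control tumour 2 left out, Hcar2 was no longer called on the deposited scale (adjusted p up to 0.142), and it was called in all 6 such fits after RLE.

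Gpr35, a receptor linked to kynurenic acid and other tryptophan and serotonin products, had the highest CPM of the group. It was at 297, 293 and 295 CPM in BAFF tumour, within 1.7 CPM (SD) of each other, and at 191, 162 and 117 CPM in control tumour. The groups did not overlap, yet the log2 difference of 0.94 ± 0.32 missed the threshold on the deposited scale (adjusted p = 0.0632 by limma). After RLE it was 0.68 ± 0.10 with an adjusted p of 0.00082, and it was called there with any library left out.

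Gpr84, a receptor for medium-chain fatty acids that activated macrophages induce, was low. It was at 2.69, 2.28 and 1.88 CPM in BAFF tumour and 1.98, 0.562 and 0 CPM in control tumour, where the floor of the library at 0 is 0.635 CPM. Control tumour 1 lay inside the BAFF tumour range, so the groups overlapped. The log2 difference was 0.97 ± 0.30 (adjusted p = 0.0274 by limma) and 0.94 ± 0.30 after RLE (adjusted p = 0.0535), and with any single library other than control tumour 1 left out it was not called on either scale. An antisense gene on the other strand covers 39.5% of the Gpr84 exons, and the library kit does not mark strand. Gpr31b, which in mouse responds to lactate and pyruvate, was at 2.49, 4.44 and 3.10 CPM in BAFF tumour and 2.96, 1.79 and 0.745 CPM in control tumour, an overlapping pair of groups with an adjusted p of 0.223 by limma and 0.138 after RLE.

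Of the proton-sensing receptors, Gpr132 was higher in BAFF tumour monocytes on both scales and Gpr65 did not pass on either. Gpr132, linked to lactate and oxidised fatty acids, was at 104, 113 and 117 CPM in BAFF tumour and 83.2, 47.6 and 42.8 CPM in control tumour. All 3 BAFF tumour libraries were above all control libraries. The mean of 111 ± 7.0 CPM stood against 57.9 ± 22 CPM (SD, n = 3), with a log2 difference of 0.99 ± 0.32 (adjusted p = 0.0403 by limma) and 0.74 ± 0.11 after RLE (adjusted p = 0.00082). As with Hcar2, leaving out any BAFF tumour library or control tumour 2 ended the call on the deposited scale (adjusted p up to 0.441) and no single library did so after RLE. The call on the deposited scale was also lost with a filter at a mean of 5 CPM (adjusted p = 0.0597 by limma).

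Gpr65, which raises cyclic AMP when the surroundings turn acid, did not pass the test. It was at 75.8, 98.7 and 91.8 CPM in BAFF tumour and 86.9, 68.0 and 35.8 CPM in control tumour, with control tumour 1 inside the range of the other group. Its log2 difference was 0.56 ± 0.32 (adjusted p = 0.388 by limma), and 0.31 ± 0.13 after RLE (adjusted p = 0.141). An antisense gene covers 24.7% of its exons.

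Of the 4 tested receptors for lipid mediators, 1 was higher on the deposited scale, and 2 were higher and 1 lower after RLE. Among all tested genes 1.81% were higher on the deposited scale, and 7.18% higher and 9.91% lower after RLE. The 1 was Gpr55, also among the 2 after RLE. It had reached the level limit through BAFF tumour only, with means of 2.88 CPM there and 0.983 CPM in control tumour. Gpr183, the oxysterol receptor known as EBI2 that guides immune cells, was at 21.0, 24.0 and 19.4 CPM in BAFF tumour and 17.6, 9.27 and 8.68 CPM in control tumour. The groups did not overlap, with control tumour 1 nearest to the BAFF tumour libraries. The log2 difference was 0.87 ± 0.32 (adjusted p = 0.0876 by limma), and 0.63 ± 0.14 after RLE (adjusted p = 0.00806), where it was called with any single library left out. Gpr183 and Gpr18 lie within Ubac2 on the opposite strand, which was at a mean of 17.4 CPM and shares no exon base with them.

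Gpr55, a receptor for lysophosphatidylinositol, was at 1.76, 3.33 and 3.55 CPM in BAFF tumour and 1.68, 0.843 and 0.423 CPM in control tumour. BAFF tumour 1 exceeded control tumour 1 by less than the value of 3 reads in either library, and control tumour 3 was under its floor of 0.635 CPM. The log2 difference was 0.98 ± 0.30 (adjusted p = 0.0257 by limma) and 0.87 ± 0.24 after RLE (adjusted p = 0.0263). On both scales the call was lost when BAFF tumour 2, BAFF tumour 3, control tumour 2 or control tumour 3 was left out (adjusted p up to 0.335 and 0.117). Gpr18, linked to the resolution of inflammation, was at 1.76, 2.75 and 5.13 CPM in BAFF tumour and 3.15, 0.562 and 1.27 CPM in control tumour, overlapping, with an adjusted p of 0.186 by limma and 0.276 after RLE.

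Gpr34, the lysophosphatidylserine receptor of microglia and tissue macrophages, moved the other way. It was at 1.87, 1.16 and 1.48 CPM in BAFF tumour and 9.15, 2.11 and 2.12 CPM in control tumour. All control libraries were above all BAFF tumour libraries, but control tumour 2 and 3 were close to BAFF tumour 1, and control tumour 1 was far above the rest. The log2 difference was -0.89 ± 0.30 (adjusted p = 0.0587 by limma), and -1.04 ± 0.30 after RLE (adjusted p = 0.0321). Without control tumour 1 it was -0.32 on the deposited scale and -0.65 after RLE, called on neither. The call after RLE was also lost without any 1 of the 3 BAFF tumour libraries (adjusted p up to 0.130 over the 6 fits), so it held in 2 of the 6. Gpr34 lies within Cask on the opposite strand, which was at 18.5 CPM and shares no exon base with it.

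The genes grouped here as blood cell orphans included the largest positive difference of all 31 genes. Gpr171, a proposed peptide receptor described in T cells and myeloid precursors, was at 58.4, 78.6 and 61.5 CPM in BAFF tumour and 22.5, 27.7 and 17.4 CPM in control tumour. The lowest BAFF tumour library was above the highest control library by more than the whole control range. The means of 66.1 ± 11 and 22.5 ± 5.2 CPM (SD, n = 3) differed 2.94-fold, and the log2 difference was 1.53 ± 0.32 (adjusted p = 0.000211 by limma) and 1.28 ± 0.17 after RLE (adjusted p = 0.000453). Gpr171 was called with every single library left out in turn, on both scales, with an adjusted p of at most 0.0481. It lies inside Med12l on the opposite strand, which was at a mean of 2.33 CPM, with no shared exon base.

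Gpr141, an orphan of myeloid cells, was at 129, 136 and 168 CPM in BAFF tumour and 112, 64.5 and 46.8 CPM in control tumour. The groups did not overlap, with control tumour 1 next below BAFF tumour 1. The log2 difference was 1.03 ± 0.32 (adjusted p = 0.0302 by limma) and 0.78 ± 0.13 after RLE (adjusted p = 0.00192). On the deposited scale the call was lost without any BAFF tumour library or control tumour 2 (adjusted p up to 0.388), and after RLE it was lost in none of the 6 fits. Both Gpr141 and Hcar2 thus depended on the scale for their stability to a left-out library, not for their direction.

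The other 3 tested genes of that group, not all of them known mainly from blood cells, did not pass on either scale. Gpr146, studied for its part in blood cholesterol, was at 28.5 to 30.6 CPM in BAFF tumour and 17.1 to 32.3 CPM in control tumour (log2 difference 0.38, adjusted p = 0.569 by limma). Gpr160 was at 6.22 to 8.34 CPM and 4.07 to 10.1 CPM, and its log2 difference changed from 0.14 to -0.08 after RLE. Gpr15, the receptor that guides T cells to the colon, was at 1.55 to 2.86 CPM and 1.54 to 2.16 CPM (adjusted p = 0.756), and 12.5% of its exons overlap Cpox on the other strand.

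**Figure D3:**
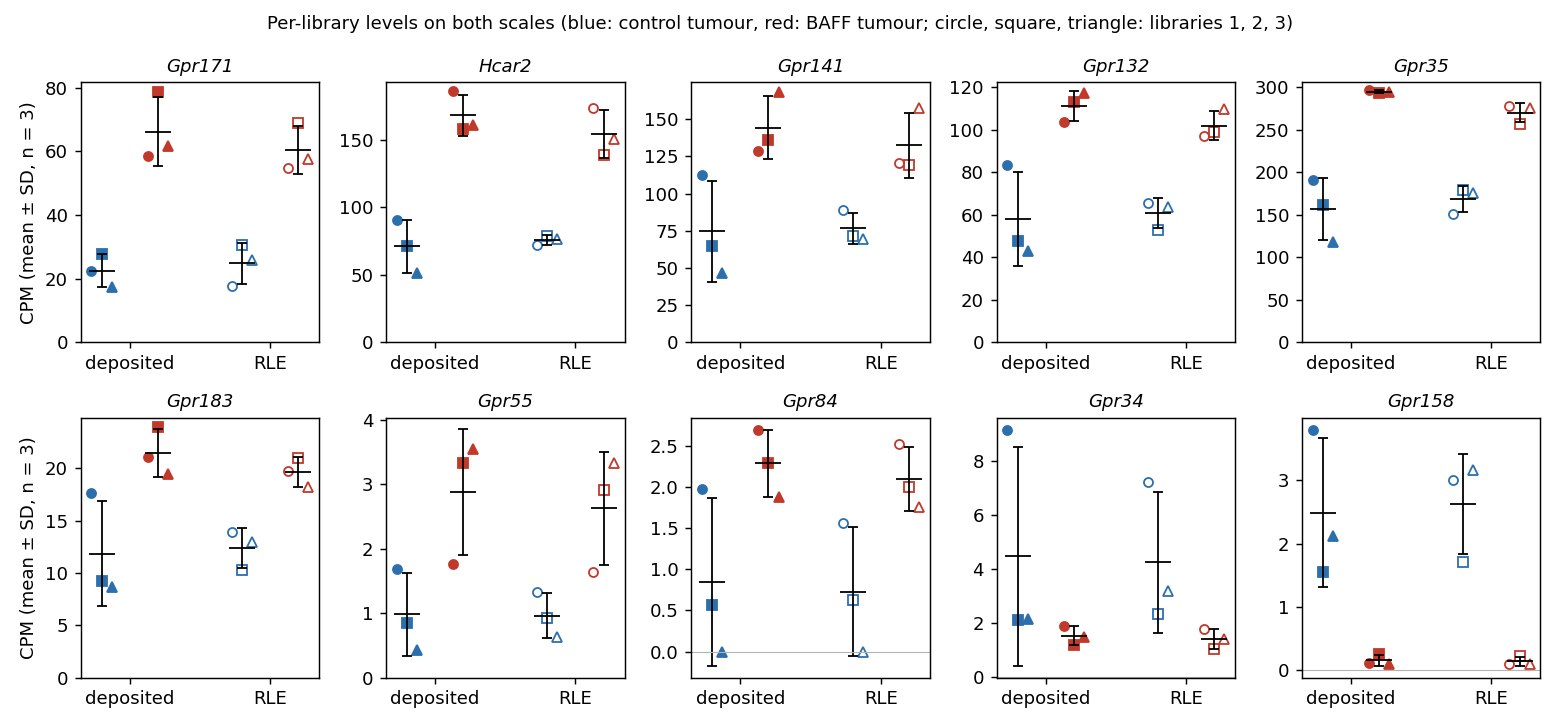
CPM of 10 receptor genes in each library, on the deposited scale (filled) and after RLE size factors (open), with the mean and SD of 3 libraries per group. Blue is control tumour and red is BAFF tumour, and the vertical axes differ between genes. After RLE the control libraries of Hcar2, Gpr35 and Gpr141 draw together while the BAFF tumour libraries stay above them, and the control tumour 1 point of Gpr34 stays far above the others.

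The genes grouped here as intracellular multi-pass proteins also hold the pseudogene Gpr137b-ps, and Gpr180, whose place in the cell was not checked. None of the 9 tested genes of this group passed the test on either scale. Among all tested genes 1.81% were higher and 3.5% lower on the deposited scale, and 7.18% and 9.91% after RLE. The unadjusted p by limma was under 0.05 for 0 of the 9 on either scale, beside 16.0% and 30.6% of all tested genes. Their median log2 difference was 0.18 on the deposited scale and -0.04 after RLE, beside 0.23 and 0.01 for all tested genes. Gpr107, a Golgi protein of endosome traffic, was at 38.5, 47.4 and 41.9 CPM in BAFF tumour and 52.3, 33.6 and 24.8 CPM in control tumour. Gpr108, its paralogue, was at 29.4 to 33.3 CPM and 16.7 to 35.3 CPM. After RLE the mean of Gpr107 was 38.9 ± 2.8 against 38.4 ± 2.4 RLE-scaled CPM (SD, n = 3), with a log2 difference of 0.02 ± 0.10.

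In the Gpr137 family, lysosomal proteins tied to mTORC1 control, Gpr137b was at 22.0 to 28.9 CPM in BAFF tumour and 19.9 to 46.9 CPM in control tumour. Gpr137b-ps, a transcribed pseudogene of it, was at 38.6 to 45.8 CPM and 23.3 to 50.8 CPM. Reads of these near-identical genes may have been split between them in the counting, so the values of either are uncertain. Gpr137 was at 6.91 to 8.16 CPM against 4.87 to 9.77 CPM, and shares 15.4% of its exons with Bad on the other strand. Gpr137c was at 2.10 to 2.49 CPM against 0.423 to 1.87 CPM, without overlap on the deposited scale and with overlap after RLE (adjusted p = 0.387 by limma and 0.279).

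Gpr89, the Golgi pH regulator, was at 7.46 to 9.35 CPM in BAFF tumour and 5.50 to 12.2 CPM in control tumour. After RLE its BAFF tumour libraries were all below its control libraries, at 6.98 to 8.19 against 8.21 to 9.64 RLE-scaled CPM, but the log2 difference of -0.17 ± 0.14 did not pass the test (adjusted p = 0.458 by limma). It shares 24.8% of its exons with Pdzk1 on the other strand. Gpr180 was at 4.46 to 5.43 CPM and 3.18 to 7.35 CPM. Gpr155, the lysosomal cholesterol sensor, was at 1.45, 2.07 and 2.47 CPM in BAFF tumour and 7.54, 2.25 and 1.27 CPM in control tumour, where control tumour 1 alone was high (log2 difference -0.42, adjusted p = 0.505 by limma; without control tumour 1 it was 0.13).

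Of the 6 tested genes among the remaining orphan receptors 1 was called, lower on both scales, and it was the largest negative difference of the 31. Among all tested genes 3.5% were lower on the deposited scale and 9.91% after RLE. Gpr158, a class C receptor of neurons reported to bind glycine, was at 0.104, 0.254 and 0.0987 CPM in BAFF tumour and 3.80, 1.54 and 2.12 CPM in control tumour. These levels stand for an estimated 1, 7 and 1 reads against 104, 11 and 10 reads. The groups did not overlap, and BAFF tumour 1 and 3 were under their floors of 0.311 and 0.296 CPM. The log2 difference was -1.55 ± 0.30 (adjusted p = 3.63e-05 by limma) and -1.65 ± 0.23 after RLE (adjusted p = 0.000529), called with every single library left out on both scales. Because its BAFF tumour mean of 0.152 ± 0.088 CPM lies under the limit, Gpr158 was tested only through its control libraries.

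The other 5 did not pass on either scale. Gpr157 was at 11.2 to 18.9 CPM in BAFF tumour and 8.26 to 14.9 CPM in control tumour. Gpr85, a conserved receptor of neurons, was at 2.37 to 3.37 CPM and 0.635 to 4.43 CPM, and Gpr37, a glial receptor linked to prosaposin, was at 1.24 to 1.85 CPM and 0.847 to 2.93 CPM. Gpr162 was at 1.24 to 1.88 CPM and 0.423 to 2.09 CPM. Gpr176, known from the circadian clock of the brain, was at 1.01 to 1.48 CPM and 0.281 to 2.74 CPM. In all 5 the groups overlapped and control tumour 1 was the highest control library. Their log2 differences lay between -0.09 and 0.28 with adjusted p of at least 0.665 by limma.

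The 13 genes under a mean of 1 CPM had means of 0.101 to 0.817 CPM, and 7 of them were at 0 in at least 1 library. They were not tested in the fit reported here. Gpr161, a regulator of Hedgehog signalling at the primary cilium, was at 0.415, 0.435 and 0.0987 CPM in BAFF tumour and 2.01, 0.702 and 1.06 CPM in control tumour, without overlap. With no filter on level, Gpr161 was called lower (log2 difference -0.75 ± 0.22, adjusted p = 0.0225 by limma), and it was the only one of the 13 that was. Gpr143, the melanosomal protein mutated in ocular albinism, was at 0.518, 0.290 and 0.0987 CPM in BAFF tumour and 1.39, 0.421 and 0.635 CPM in control tumour, overlapping (adjusted p = 0.223 with no filter).

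The lysophosphatidylserine receptor Gpr174 was at 0.207, 0.616 and 1.58 CPM in BAFF tumour and 0.512, 0.281 and 0.212 CPM in control tumour. Gpr141b, which GENCODE lists as a long noncoding RNA, was at 0.829, 0.399 and 1.18 CPM and 0.476, 0.281 and 0 CPM. Gpr19 and Gpr21 were at 0.311 to 0.942 and 0.415 to 0.790 CPM in BAFF tumour and at 0.847 to 1.12 and 0.562 to 0.847 CPM in control tumour. In all of these the groups overlapped. Gpr83, named for its lack of overlap, was at 0.518, 0.181 and 0.592 CPM in BAFF tumour and 0.0732, 0 and 0 CPM in control tumour, which is an estimated 5, 5 and 6 reads against 2, 0 and 0.

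Genes around these receptors were counted in lists taken from the same fit, to be read beside all tested genes, of which 1.81% were higher and 3.5% lower on the deposited scale and 7.18% and 9.91% after RLE. The first list held receptors with other names, for metabolites, lipids and nucleotides but also for complement and other peptides. Of 34 tested, 4 were higher and 0 lower on the deposited scale, and 11 and 2 after RLE, with a median log2 difference of 0.47 and 0.29. Lpar5, 1 of the 2 lower after RLE, had reached the level limit through the control libraries only. The 4 higher on the deposited scale were S1pr3, a sphingosine phosphate receptor (log2 difference 1.30, adjusted p = 0.00192 by limma), Fpr2, a formyl peptide receptor (1.06), Adora2a, an adenosine receptor that raises cyclic AMP (0.97), and P2ry10, a lysophosphatidylserine receptor (0.96). The most abundant, C3ar1 and Ccrl2, did not pass on the deposited scale (adjusted p = 0.750 and 0.239 by limma), and Ccrl2 did after RLE.

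Adhesion receptors, a separate class with long extracellular parts, had 0 higher and 4 lower of 11 tested on the deposited scale, and 2 higher and 4 lower after RLE, with medians of -0.05 and -0.30. The 4 were Adgrl1 (log2 difference -1.28, adjusted p = 0.0017 by limma), Adgra3 (-1.26), Adgrl2 (-1.14) and Adgra2 (-0.97). The most abundant were the macrophage marker Adgre1 (log2 difference -0.05) and Adgre5 (0.62), neither called. Of 20 tested G protein subunits, 0 were higher and 2 lower on the deposited scale, and 3 and 4 after RLE, with medians of 0.27 and 0.02. Gnao1, the alpha subunit of neurons, was lower (log2 difference -1.34, adjusted p = 0.000754 by limma), as was Gng11 (-0.93), and both had reached the level limit through the control libraries only, with BAFF tumour means of 0.783 and 0.797 CPM. The abundant Gna13 (0.80) and Gnai2 (0.34) were not called on the deposited scale and Gna13 was higher after RLE.

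Downstream of the receptors, 25 tested genes of cyclic AMP signalling had 1 higher and 3 lower on the deposited scale, and 4 and 6 after RLE, with medians of 0.18 and -0.06. Crem, a cyclic AMP-induced transcription factor, was higher (log2 difference 1.07, adjusted p = 0.0203 by limma), and the cyclic AMP-activated exchange factors Rapgef4 (-2.27) and Rapgef3 (-1.35) and the adenylyl cyclase Adcy3 (-1.05) were lower. The abundant Pde4b and Adcy7 were not called on the deposited scale. Of 19 tested genes that switch receptors off, Rgs12 was the only one called there (log2 difference -0.93, adjusted p = 0.0456 by limma), and the abundant Rgs1 and Rgs2 were not. After RLE 1 was higher, Rgs2, and 1 lower, Rgs12, and the medians were 0.29 and 0.05.

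Of 23 tested enzymes and carriers of the receptors' ligands, 1 was higher on the deposited scale, and 4 were higher and 2 lower after RLE, with medians of 0.28 and 0.05. It was Alox15, a lipoxygenase (log2 difference 0.99, adjusted p = 0.0288 by limma). The lactate enzyme Ldha was at 663.9 to 876.1 CPM in BAFF tumour and 439.9 to 749.9 CPM in control tumour and was not called on either scale. The lactate exporter Slc16a3 was at 275.5 to 356.7 CPM against 150.9 to 223.3 CPM and was called higher after RLE only (adjusted p = 0.0219 by limma).

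Markers of other cells moved with the groups, and the same shares of all tested genes stand beside their counts. Of 14 melanoma markers 0 were higher and 10 lower in BAFF tumour on the deposited scale (0 and 12 after RLE), and their summed level was 424.6 to 673.0 CPM in BAFF tumour and 769.6 to 1405 CPM in control tumour, with none at 0 in any library. Dct, Pmel and Mc1r, pigment cell genes, had log2 differences of -2.07, -2.04 and -1.90 (adjusted p at most 5.52e-07 by limma), while the most abundant, Gpnmb, which macrophages also express, was not (0.01). These values stand beside those of Gpr158, Gpr161 and Gpr143. They also stand beside the genes called lower on the deposited scale in the lists around the receptors. Those are Rapgef4, Rapgef3, Adcy3, Gnao1, Gng11, Rgs12, Adgrl1, Adgra3, Adgrl2 and Adgra2. The part of melanoma cell RNA in the values of all these genes was not tested.

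Of 14 tumour macrophage markers, which hold Adgre1 too, 0 were higher and 2 lower on the deposited scale and 0 and 9 after RLE. Their sum was 3950 to 4280 CPM in BAFF tumour and 3559 to 7806 CPM in control tumour, with control tumour 1 the highest and none at 0. The 2 were Lyve1 (log2 difference -3.87) and Folr2 (-2.04), with adjusted p of at most 1.47e-07 by limma, and the most abundant, Mrc1, was lower only after RLE. Gpr34 and Gpr155 were highest in the same library, control tumour 1, as were 16 of the 31 tested receptor genes on the deposited scale, and the part of macrophages in their values was not tested.

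**Figure D4:**
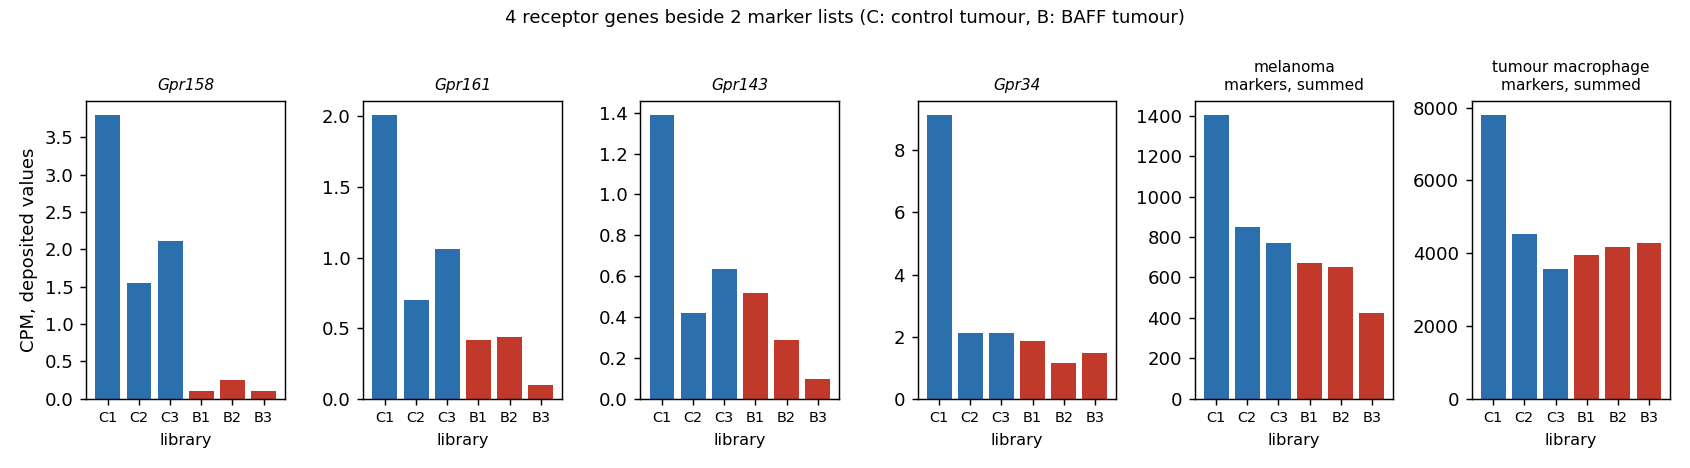
Deposited CPM of Gpr158, Gpr161, Gpr143 and Gpr34 and the summed CPM of 14 melanoma and 14 tumour macrophage markers in each library, as bars from 0, with control tumour in blue (C1 to C3) and BAFF tumour in red (B1 to B3). The melanoma sum lies between 769.6 and 1405 CPM in control tumour and between 424.6 and 673.0 CPM in BAFF tumour, and control tumour 1 is the highest bar in every panel.

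Beside the receptors that were higher stood part of the markers of Ly6C-high monocytes, dendritic cells and neutrophils. Of 10 Ly6C-high monocyte markers 4 were higher on the deposited scale (7 after RLE) and 0 lower, with a sum of 4462 to 4910 CPM in BAFF tumour and 2441 to 4252 CPM in control tumour. Chil3 had a log2 difference of 1.62, Hp of 1.09 and Clec4e of 1.05 (adjusted p at most 0.0266 by limma), while the most abundant, F13a1, was not called (0.09). Of 12 dendritic cell markers 3 were higher on both scales, Itgax, Flt3 and Cd209a, and 0 lower, with a sum of 166.6 to 194.5 CPM against 82.0 to 133.9 CPM. Itgax held the largest part of that sum, at 100.1 to 137.2 CPM against 50.3 to 70.3 CPM. The other 9 were not called. On the deposited scale Xcr1, Batf3, Clec9a, Fscn1 and Kit had negative differences, and Zbtb46, Siglech, Ccr7 and Dpp4 positive ones. The median of the list was 0.26 and 0.06 after RLE, beside 0.23 and 0.01 for all tested genes. Of 9 neutrophil markers 5 were higher on the deposited scale and 3 after RLE, and 0 lower, with a sum of 217.7 to 326.6 CPM against 103.8 to 228.1 CPM. Il1r2 was higher on both scales. Lcn2, which reached the level limit through BAFF tumour only, and S100a8 were higher on the deposited scale, where their groups overlapped, and were not called after RLE (adjusted p = 0.128 and 0.176 by limma). The most abundant, Csf3r, was higher only after RLE. Ly6c1 was at under 1 read in control tumour 3 and none of the other markers in these lists was at 0 in any library. Their part in the values of Gpr171, Hcar2, Gpr141, Gpr132, Gpr35, Gpr183, Gpr84 and Gpr55 was not tested.

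The remaining marker lists held few calls. Of 13 tested T and NK cell markers 0 were called by limma on either scale, and 1 had an unadjusted p under 0.05 on each, beside 16.0% and 30.6% of all tested genes. Their sum was 29.6 to 45.2 CPM in BAFF tumour and 17.4 to 56.1 CPM in control tumour, Trac was at 0 in control tumour 3, and the most abundant was Gzmb. These low sums stand beside Gpr171, Gpr18 and Gpr174, which T cells also express, and their part in those values was not tested. Ly6C-low monocyte markers, led by Nr4a1, had 0 of 8 called on the deposited scale (4 at an unadjusted p under 0.05) and 1 higher and 1 lower after RLE, with sums of 911.0 to 984.1 and 539.6 to 802.2 CPM. Endothelial markers, led by Pecam1, had 0 of 4 called (2 at an unadjusted p under 0.05), and 2 higher after RLE, with sums of 35.7 to 46.4 and 19.5 to 32.6 CPM, and Tek, Emcn, Esam and Tie1 were at 0 in at least 1 library. Fibroblast markers, led by Col3a1, had 0 of 9 called (3 at an unadjusted p under 0.05), and 1 lower after RLE, with sums of 41.6 to 64.3 and 34.7 to 267.7 CPM. Of 2 tested B and plasma cell markers Jchain was lower, with sums of 2.65 to 6.22 and 4.77 to 13.5 CPM and Cd79a and Mzb1 at 0 in at least 1 library.

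Leaving out both control libraries high in ribosomal RNA, an alternative chosen after seeing the data, leaves control tumour 1 as the only control, whose spread is then assumed to be that of the BAFF tumour libraries. Gpr171 (log2 difference 1.5), Hcar2 (0.88) and Gpr35 (0.63) were then higher and Gpr158 (-2.06), Gpr34 (-2.03), Gpr155 (-1.53) and Gpr137b (-0.81) lower on the deposited scale, by limma with an adjusted p of at most 0.0204. Gpr132, Gpr141, Gpr55 and Gpr84 were not called (log2 differences of 0.41, 0.35, 0.50 and 0.14). With RLE over the same 4 libraries Gpr132 was called as well (0.61, adjusted p = 0.027 by limma) and Gpr137b was not.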

How the data were processed

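RNA sequencing had been done on 6 libraries, 3 per group. Per the labels' protocols, an unstranded kit (TruSeq RNA v2) and an Illumina HiSeq were used. Bowtie2 2.2.5, STAR 2.4.1d and Partek appear in the submitters' processing notes, with no role stated. The sources used here do not name a genome build, annotation or counting rule. The samples' source label names the tumour line and the series design sorted monocytes, and the design was followed.

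The authors deposited 1 table in CPM, identified from its values: between 83.4% and 85.9% of values under 30 reads lay within 0.02 of a whole multiple of 1 step per library, which gives the reads per CPM. This was too few to recover counts, so no count model was used. The listed genes hold 39.8% to 66.1% of each library's total. The misspelt column name of control tumour 2 fits no other title. No 2 libraries of a group were alike within sampling noise (smallest chi-square per degree of freedom 7.47).

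The 12824 genes whose mean was at least 1 CPM were fitted with limma 3.58.1 in R 4.3.3, as limma-trend on log2(CPM + 1) of the deposited values without rescaling, which understates changes of low genes, with Benjamini-Hochberg adjusted p under 0.05 and again after RLE factors. The method was tested on simulated data. Summed levels were compared by exact permutation (SciPy 1.17.1). Errors of CPM are SD, errors of log2 differences SE. Exon lengths and overlaps come from GENCODE M21, and start regions from RefSeq. Protein sequences, planned as a description, were not used here.

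The genes and lists were chosen with earlier results of these data known. Named were all receptor genes whose mean was at least 1 CPM, those at 0.5 CPM or above, in each list around the receptors the called genes (up to 6) and the 2 most abundant, and in each marker list up to 3 called genes and the most abundant. Alternatives were RLE and upper-quartile factors, a pseudocount of 0.1, no filter, a filter at 5 CPM, the replicate number as a block, each library left out, and, chosen after seeing the data, control tumour 2 and 3 left out together. Some items are not reported here.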

Additional observations from a re-analysis of the deposited data

How the results depend on the processing

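Receptor genes called numbered 7 on the deposited scale, and 3 with a filter at 5 CPM, which leaves Gpr158, Gpr55 and Gpr84 untested and under which Gpr132 was tested and not called (adjusted p = 0.0597 by limma), and 2 to 18 with 1 library left out, the 18 without control tumour 1. Genes called higher numbered 6, and 3 with that filter, 1 to 17 with 1 library left out and 3 without control tumour 2 and 3 together. Genes called lower numbered 1, and 2 with RLE, upper-quartile factors, no filter or RLE with the block, 0 with the filter, 1 to 3 with 1 library left out, 1 to 2 with that after RLE, and 4, or 3 with RLE, without control tumour 2 and 3. Of all tested genes 681 were called, and 2192 with RLE, 2080 with upper-quartile factors, 316 with the filter, 1940 with RLE and the block, 167 to 5192 with 1 library left out, 1334 to 1821 with that after RLE, and 1861, or 1122 with RLE, without control tumour 2 and 3. In the lists around the receptors 16 genes were called, and 44, 41, 7, 41, 2 to 71, 27 to 39, 35 and 28 under the same settings in that order. Apart from these, the cause of the shifts was not tested.

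Same-numbered libraries did not deviate together (correlations of -0.06, 0.06 and -0.04). With 3 libraries per group this cannot exclude that the numbers pair the libraries, and the labels give no pairing. With the replicate block 608 genes and 5 receptor genes were called, Gpr132 and Gpr141 being lost (adjusted p = 0.0898 and 0.0707 by limma), and 10 receptor genes with RLE and the block. Only BAFF tumour 2 correlated best with its own number.

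Signs turned only for genes that were not called on the deposited scale. With RLE, with or without the block, Gpr137 was at -0.041, Gpr160 at -0.081 and Gpr89 at -0.17 on the log2 scale. With upper-quartile factors Gpr107 was at -0.031, Gpr137 -0.083, Gpr15 -0.0082, Gpr160 -0.12, Gpr176 -0.0054 and Gpr89 -0.22. Without control tumour 2 and 3 Gpr107 was at -0.30, Gpr108 -0.19, Gpr137 -0.33, Gpr137b-ps -0.23, Gpr146 -0.14, Gpr157 -0.069, Gpr160 -0.41, Gpr162 -0.25, Gpr176 -0.74, Gpr18 -0.055, Gpr85 -0.53 and Gpr89 -0.51, and the median of the 31 genes was -0.14; with RLE there, Gpr107 was at -0.095, Gpr137 -0.15, Gpr137b-ps -0.029, Gpr160 -0.23, Gpr162 -0.12, Gpr176 -0.60, Gpr85 -0.37 and Gpr89 -0.33.

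With 1 library left out, over both scales, the log2 differences of the genes whose sign turned ran over these ranges: Gpr107 -0.031 to 0.54, Gpr137 -0.10 to 0.43, Gpr137b -0.48 to 0.35, Gpr15 -0.12 to 0.35, Gpr155 -0.83 to 0.13, Gpr157 -0.16 to 0.46, Gpr160 -0.37 to 0.41, Gpr162 -0.13 to 0.45, Gpr176 -0.33 to 0.54, Gpr180 -0.30 to 0.22, Gpr37 -0.34 to 0.21, Gpr85 -0.37 to 0.51 and Gpr89 -0.22 to 0.32. Control tumour 2 and 3, at 7.12 and 4.72 reads per CPM, limit what can be seen for genes under about 1 CPM.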
